A study of Mus musculus with 4 samples.

Results

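Solute carriers are a large group of membrane proteins that move small molecules such as amino acids, sugars, ions, nucleosides and vitamins across cell membranes. This account covers the solute carrier genes at which DNMT3B, a DNA methyltransferase, was found enriched in lung metastases of 4T1 mammary tumour cells, a transplantable BALB/c mouse line. Chromatin immunoprecipitation and sequencing (ChIP-seq) gave 2 DNMT3B ChIP libraries and 2 input libraries made without antibody, each kind with the lung labels 3 and 5. No other genotype, treatment or time was labelled, and nothing says whether the lungs came from separate mice. The data were 2 lists for the whole series, one of broad islands from SICER and one of narrow regions from MACS, with positions and gene names but no value per library. Depth is therefore unknown, no spread between replicates exists, and no test between groups could be made. The cell type could not be checked against marker genes, because the lists hold no expression values. By its name the island list appears to be a top part of the calls, with no rule stated. A gene without an island here may therefore have one below that cut.

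Members were chosen by being listed: a symbol of Slc plus a number, paired with a SICER island, or nearest to a MACS region with a deposited distance of 5000 bp or less. This gave 95 genes of the 4854 gene names that meet the same conditions in the 2 lists. Islands were paired with 87 of them and narrow regions were assigned to 17, with 9 genes in both lists, 78 with islands only and 8 with narrow regions only. The genes are represented by 171 of the 8242 islands and 21 of the 1705 distinct narrow regions. Of the 95, 93 are named as carriers, while Slc9a3r1 and Slc9a3r2 encode scaffold proteins that bind a sodium-proton exchanger. The distance limit decided no member: the farthest narrow region inside it lay 3104 bp downstream of Slc25a1, and the nearest outside it lay 64634 bp downstream of Slc1a3, a glutamate transporter gene.

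DNMT3B adds methyl groups to cytosines, mainly where a cytosine is followed by a guanine (CpG), and is known for its preference for the bodies of transcribed genes. Many gene starts lie in stretches rich in CpG that usually stay free of methylation. Solute carrier genes are named by family number, then by the letter a and a member number. In tumours the families best known are those that bring in glutamine, leucine, arginine and glucose and those that export lactate.

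Among the 374 protein-coding Slc genes of RefSeq, 87 (23.3%) were paired with an island, where 17.2% of all 21900 protein-coding genes were. A narrow region was assigned to 17 (4.55%), against 5.78% of all protein-coding genes, and both kinds to 9 (2.41%), against 2.36%. The shares for narrow regions and for both lists thus lay near those of all genes. The share with an island was higher, and since the genes were picked with these lists in view it is given as a description. The shares of all genes include genes listed under older names. Slc genes under older names were left out of the Slc counts, so the Slc shares may be low by comparison. Members lay on 18 chromosomes. Chromosome 11 held 17 of its 33 Slc genes in the lists (51.5%, all protein-coding genes 36.3%), chromosome 5 held 10 of 21 (47.6%, all 31.4%), chromosome 16 held 4 of 9 (44.4%, all 47%) and chromosome 2 held 14 of 34 (41.2%, all 23.4%). Chromosome 3 held 2 of 24 (8.33%, all 12.8%), and chromosomes 18 and X held 0 of 13 each (all 8.02% and 0.621%). Over the genome 20.6% of all protein-coding genes were in either list, against 25.4% of Slc genes. The shares of all genes differed between chromosomes as well. All 4 members of chromosome 16 had a narrow region and 1 of them had an island.

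**Figure D1:**
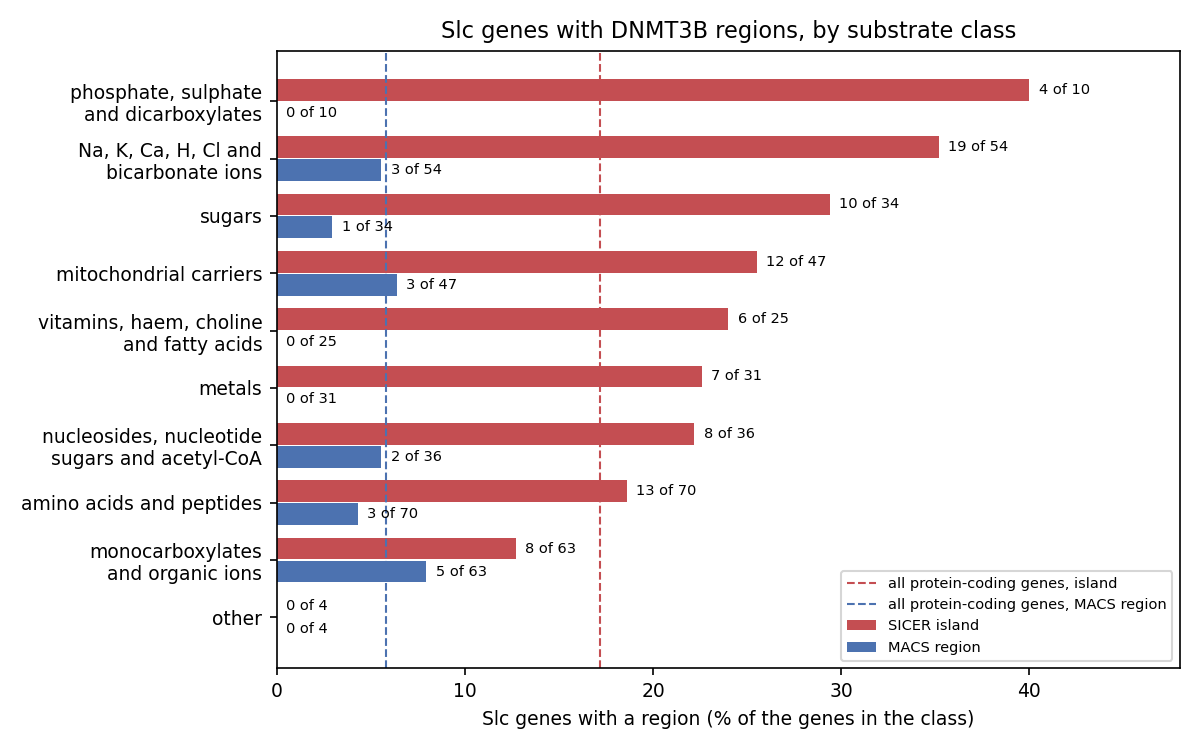
Share of protein-coding Slc genes with a SICER island (red bars) or a MACS region (blue bars) in each substrate class, in percent, with the counts beside the bars and the shares of all protein-coding genes as dashed lines (17.2% and 5.78%). Ion carriers had islands at 19 of 54 genes, the scaffold genes Slc9a3r1 and Slc9a3r2 included, and carriers of monocarboxylates and organic ions at 8 of 63.

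By their listed positions, narrow regions touched or closely preceded the start of a small group of members. By the deposited distance and wording, 4 regions lay upstream of a gene, 3 lay partly in it, 8 were contained within it, 5 lay in an intron and 1 lay downstream. In percent of the 21 regions these are 19, 14.3, 38.1, 23.8 and 4.76, and for the 1598 regions at other genes within the same limit they were 18.9, 12.7, 40.2, 27 and 1.13. The regions at Slc genes were thus spread over these places much as the others were. Slc5a3, which encodes a sodium-coupled carrier of myo-inositol, had a region 67 bp upstream, on chromosome 16 from 92058400 to 92058500. A second region, from 92059100 to 92059200, was assigned to Mrps6 but was described as lying in an intron of both Mrps6 and Slc5a3. Slc25a42, which encodes a mitochondrial carrier of coenzyme A, had a region 19 bp upstream, on chromosome 8 from 72736200 to 72736400. Slc25a11, the gene of the oxoglutarate carrier, had one 158 bp upstream, on chromosome 11 from 70460700 to 70460800. At Slc22a4, which encodes a carrier of organic cations and ergothioneine, the region from 53841500 to 53841600 on chromosome 11 straddled the gene start, with 94 of its 101 bp in the gene. At Slc35f6 a region of the same size, on chromosome 5 from 30950300 to 30950400, had 89 bp in the gene, and which edge it crossed is not given. All these positions are rounded to 100 bp. Distances and overlaps smaller than that, as at Slc5a3, Slc25a42 and Slc22a4, do not settle the side of the start. Slc38a10 had a region at 120013000 on chromosome 11, listed as 334 bp upstream but rounded to 1000 bp, so that its side of the start is uncertain.

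The promoters of 4 members with a region listed at or just before the start are shown with those of Slc7a1 and Slc16a8. Slc7a1 was the member with most islands, and its start lay in an island. The start of Slc16a8 lay in an island too, and its single narrow region lay inside the gene. Each line gives the 250 bases before the gene start, 5′ to 3′ on the strand of the gene, from the RefSeq promoter table, and capitals mark each CG. Their positions are those of GRCm38.p6 and are not set against the deposited positions. They show the CpG content of the starts and are not the bases under a region.
Slc5a3 (GRCm38.p6 chr16:92058072-92058321, plus strand): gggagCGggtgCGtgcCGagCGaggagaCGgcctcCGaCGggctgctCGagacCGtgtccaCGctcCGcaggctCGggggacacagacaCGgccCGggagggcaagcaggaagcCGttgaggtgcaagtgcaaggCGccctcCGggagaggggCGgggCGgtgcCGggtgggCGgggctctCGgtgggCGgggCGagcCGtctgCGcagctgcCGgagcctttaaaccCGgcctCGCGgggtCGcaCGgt
Slc22a4 (GRCm38.p6 chr11:54028105-54028354, minus strand): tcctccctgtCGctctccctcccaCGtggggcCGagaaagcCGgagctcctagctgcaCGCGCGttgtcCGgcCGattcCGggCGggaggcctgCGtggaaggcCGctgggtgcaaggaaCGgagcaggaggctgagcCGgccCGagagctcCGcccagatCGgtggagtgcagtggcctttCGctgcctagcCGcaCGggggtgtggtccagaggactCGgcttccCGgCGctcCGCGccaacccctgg
Slc25a1 (GRCm38.p6 chr16:17928220-17928469, minus strand): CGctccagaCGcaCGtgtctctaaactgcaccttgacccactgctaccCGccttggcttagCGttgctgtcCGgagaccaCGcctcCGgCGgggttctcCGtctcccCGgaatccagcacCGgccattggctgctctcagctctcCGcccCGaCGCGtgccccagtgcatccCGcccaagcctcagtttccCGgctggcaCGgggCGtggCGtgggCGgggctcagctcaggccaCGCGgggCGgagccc
Slc25a42 (GRCm38.p6 chr8:70212282-70212531, minus strand): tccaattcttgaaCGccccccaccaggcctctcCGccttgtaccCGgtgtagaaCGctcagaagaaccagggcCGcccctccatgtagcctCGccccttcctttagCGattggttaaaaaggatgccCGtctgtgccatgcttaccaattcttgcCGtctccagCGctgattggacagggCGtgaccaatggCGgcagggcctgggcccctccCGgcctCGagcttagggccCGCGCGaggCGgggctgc
Slc7a1 (GRCm38.p6 chr5:148399905-148400154, minus strand): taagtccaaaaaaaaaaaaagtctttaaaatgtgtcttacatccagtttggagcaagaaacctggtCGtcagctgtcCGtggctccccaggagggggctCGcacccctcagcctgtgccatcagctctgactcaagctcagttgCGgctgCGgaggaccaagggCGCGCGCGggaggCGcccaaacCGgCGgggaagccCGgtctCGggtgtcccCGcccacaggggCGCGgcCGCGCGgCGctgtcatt
Slc16a8 (GRCm38.p6 chr15:79254749-79254998, minus strand): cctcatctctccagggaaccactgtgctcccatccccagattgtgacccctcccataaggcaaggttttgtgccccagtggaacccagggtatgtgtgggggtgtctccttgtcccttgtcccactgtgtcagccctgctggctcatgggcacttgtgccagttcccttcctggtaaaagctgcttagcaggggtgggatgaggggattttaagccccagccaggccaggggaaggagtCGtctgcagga

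The first 5 carried 32, 26, 25, 18 and 21 CG in these 250 bases, and Slc16a8 carried 1. Over the 300-base windows of the table (250 before and 50 after the start), CpG observed over expected was 0.96 for Slc5a3, 0.81 for Slc22a4, 0.85 for Slc25a1, 0.81 for Slc25a42, 0.85 for Slc7a1 and 0.04 for Slc16a8. This ratio is the number of CG times the window length, divided by the product of the C and G counts. The 7 members with a narrow region upstream of the gene or across its edge all matched the table, with a median ratio of 0.81 and 16 to 38 CG in the window. All 15 matched members with a narrow region had a median of 0.70. A start with few CG was also among them: Slc22a3, an organic cation transporter gene with 2 regions contained within it, had 5 CG and a ratio of 0.25.

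The same windows were compared over all members. The promoter table matched 76 of the 95 members, 56 of them with a single window, and the outermost start was used for the others. Members had a median of 19 CG and a ratio of 0.64 (quartiles 0.35 and 0.81). The 213 other Slc genes had 13 CG and 0.55, and all 17492 protein-coding genes in the table had 13 CG and 0.58. CpG-rich windows, with a ratio above 0.6 and a GC content above 50%, were found at 45 members (59.2%), 91 other Slc genes (42.7%) and 45.5% of all. The 27 matched members whose start lay in an island had a median ratio of 0.66, and the 42 with islands elsewhere had 0.61. The quartiles of these sets, 0.54 and 0.84 against 0.32 and 0.80, overlap. By class, medians went from 0.81 for 11 mitochondrial carriers to 0.32 for 9 carriers of monocarboxylates and organic ions. Slc35e1, at 48, had the most CG of any member's window, and Slc39a5, a zinc importer gene, had 0 in the window used. Of 3 motifs searched, each of which reads the same on both strands, GCGCGC occurred in 16 member windows (21.1%, all windows 18%), CACGTG in 8 (10.5%, all 7.91%) and TGACGTCA in 0 (all 2.33%).

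**Figure D2:**
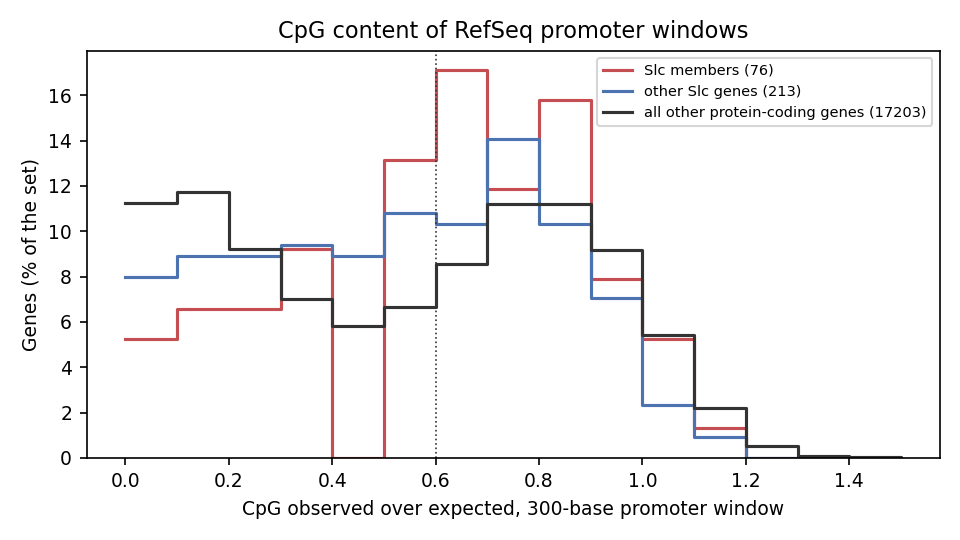
CpG observed over expected in 300-base RefSeq promoter windows (x axis) against the percent of genes in each bin of 0.1 (y axis), for 76 members (red), 213 other Slc genes (blue) and all other protein-coding genes (black), with the limit of 0.6 dotted. Members have fewer windows in the lowest bins and, in total, more between 0.5 and 0.9, with wide overlap of the 3 curves.

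Islands of the members were of ordinary size for the list and lay at every part of the genes. Their median width was 4800 bp (quartiles 3000 and 7500 bp), the same as for the 7659 islands of other protein-coding genes, whose quartiles were 3000 and 7400 bp. In the direction of transcription, 66 islands lay inside the gene (38.6%, other genes 48.6%), 29 covered the start only (17%, 12.2%), 22 covered the end only (12.9%, 9.81%) and 4 covered the whole gene (2.34%, 2.66%). A further 23 lay wholly upstream (13.5%, 11.7%) and 27 wholly downstream (15.8%, 15.1%). Counting those over whole genes, the start was covered in 33 members by 1 island each (19.3% of islands, other genes 14.9%) and the end in 26 (15.2%, 12.5%). No island in the list lies more than 10 kb from its gene, which bounds the upstream and downstream classes. Islands over an end were wider (median 6700 bp) than those inside a gene (3900 bp), and the 4 over whole genes were the widest (10800 bp). Members were shorter than the other genes with islands, with a median of 17.8 kb against 21.4 kb and an upper quartile of 28.3 kb against 48.2 kb. Gene length therefore moves with the smaller share inside genes and the larger share at starts and ends, and its part in them was not tested.

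Along the gene body, 102 islands had their midpoint between gene start and gene end. With the body cut into 5 equal parts, the counts from part 1 to part 5 were 27, 12, 21, 24 and 18, or 26.5%, 11.8%, 20.6%, 23.5% and 17.6%. In the other genes these shares were 19.1%, 18%, 18.1%, 20.2% and 24.6%. The counts were thus highest in parts 1 and 4 of members, and lowest in part 2. Among the 66 islands wholly inside members, part 1 and part 2 held 9 each (13.6%), part 3 held 20 (30.3%), part 4 held 21 (31.8%) and part 5 held 7 (10.6%). In the other genes these shares were 12.7%, 20.1%, 21.5%, 23.6% and 22.2%. By count, islands wholly inside members lay mostly in parts 3 and 4, and 27 of the 66 (40.9%, other genes 42.8%) had their midpoint before the middle of the gene. Islands of one gene are not independent of each other, and Slc7a1 and Slc6a6 alone had 7 and 5 inside. With the body cut into 10 equal parts, the mean share of bases covered by the gene's own islands was highest in part 1 of members, at 37.2%, and lowest in part 5, at 28.8%. In the other genes it ran from 27.3% to 29.4%, also highest in part 1. In members part 9 again reached 34.8%. The spread between members is wide, from genes with no base covered to genes covered in full.

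**Figure D3:**
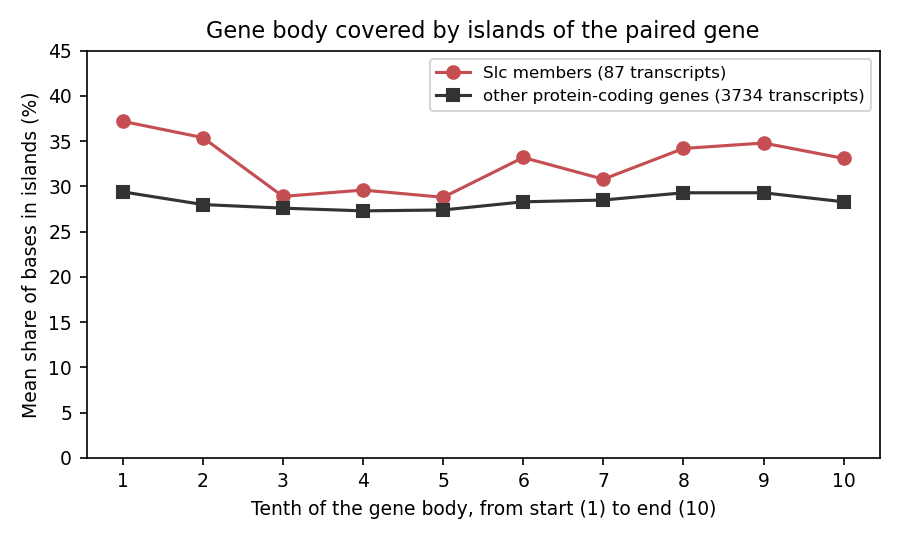
Mean percent of bases in islands of the paired gene (y axis) for each of 10 equal parts of the gene body from start to end (x axis), for 87 members (red circles) and 3734 transcripts of other protein-coding genes (black squares). Members lie between 28.8% and 37.2% and the other genes between 27.3% and 29.4%. Members are the shorter genes, with a median of 17.8 kb against 21.4 kb.

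Coverage of single members ranged from none to the whole gene. Islands covered a median of 25.9% of the gene body in members and 16% in the other genes, and 23 members (26.4%, other genes 22.7%) were covered over more than 50%. Members were the shorter genes (median 17.8 against 21.4 kb) at the same median island width, and the part of length in this difference was not tested. Of the 87, 45 members had 1 island, 19 had 2 and 23 had at least 3. In members with at least 3 the median coverage was 52.2%, and in those with 1 it was 8.2%, at median lengths of 20.4 and 19 kb. By the parts of the gene reached, 24 members had an island over the start but not the end, 17 over the end but not the start, 9 over both and 26 only inside. The remaining 11 had islands outside the gene alone, 5 upstream and 6 downstream. Neighbouring islands of one gene were separated by at least 600 bp, the smallest gap in members and other genes alike. Of 84 such gaps in members, 38 (45.2%, other genes 41.1%) were of 1 kb or less, so some islands counted apart are close pieces of one covered stretch.

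Amino acid and peptide carriers included both members with more than 5 islands. Islands were paired with 13 of 70 genes of this class (18.6%, all protein-coding genes 17.2%) and narrow regions assigned to 3 (4.29%, all 5.78%). Slc7a1, the arginine and lysine transporter gene, had 8 islands between 149147000 and 149212199 on chromosome 5. One island covered the start and 7 lay inside, and together they held 59.1% of its 72496 bp. Slc7a5, which encodes the leucine-transporting light chain, had 2 islands of 17000 and 15400 bp on chromosome 8, from 124399600 to 124432599. These covered start and end and 97.7% of the gene. Slc6a6, the taurine transporter gene, had 6 islands, with 1 over the start and 5 between 34940 and 59539 bp into a gene of 74998 bp. Slc38a10 had 3 islands over 83.8% of the gene, and the one over the start held its narrow region. Of the glutamine transporter genes, Slc1a5 and Slc38a2 had 1 island each at the start, of 1600 and 2800 bp. Slc38a3 had 2 inside and 2 upstream, and 1 of those inside began 131 bp after the start. Islands stand on steps of 200 bp, so this island is not set apart from one at the start. The peptide transporter genes Slc15a3 and Slc15a4 had 2 islands each, and Slc15a4 was covered at both ends. Slc6a17, Slc36a2 and Slc38a8 each had 1 island inside, and Slc36a3 had 1 upstream, 9992 bp away, which lay over Slc36a2. Slc1a4, a neutral amino acid transporter gene, had a narrow region within it at 20232200 on chromosome 11 and no island. Slc7a4 had an intronic region at 17576700 on chromosome 16, inside an island paired with its neighbour P2rx6.

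**Figure D4:**
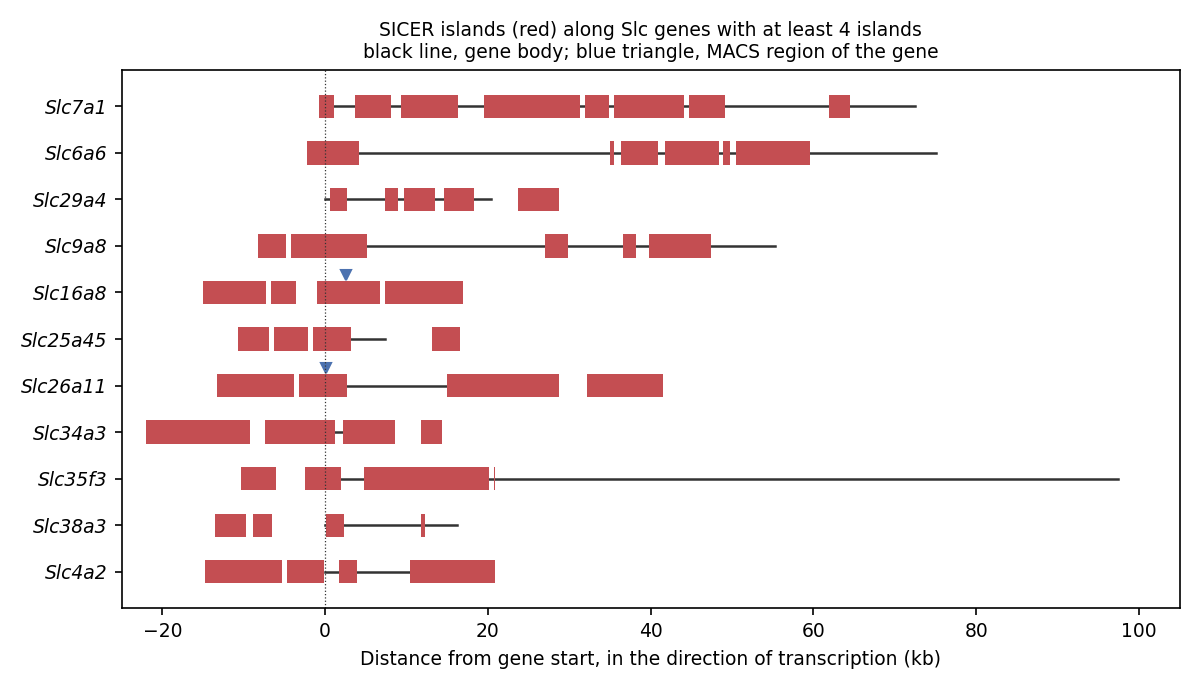
SICER islands (red bars) of the 11 members with at least 4 islands, as distance in kb from the gene start in the direction of transcription (x axis), with the gene body as a black line and narrow regions of the gene as blue triangles. The 8 islands of Slc7a1 run along most of its body, while those of Slc35f3 end 20921 bp into a gene of 97400 bp.

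Ion carriers formed the largest group of members. Islands were paired with 19 of 54 genes (35.2%, all protein-coding genes 17.2%), and narrow regions were assigned to 3 (5.56%, all 5.78%). These counts include the scaffold genes Slc9a3r1 and Slc9a3r2, which are not carriers. In the Slc12 family of cation and chloride cotransporters, 6 of 9 genes were members, where 20.6% of all protein-coding genes were in either list. Slc12a3, the thiazide-sensitive cotransporter gene, had 3 islands inside over 43.2% of the gene, and Slc12a4 had 3, of which 1 covered the start, over 74.6%. Slc12a7 had 1 island inside and Slc12a9 had 1 over the start. Slc12a5, whose product extrudes chloride from neurons, had an island inside and a narrow region at 164823000 on chromosome 2. The island lay 4313 to 6912 bp into the gene and the region 29513 bp into it. Slc12a8 had an intronic narrow region, on chromosome 16 from 33576800 to 33576900, and no island. Of the Slc4 family, Slc4a1, Slc4a2 and Slc4a3, which encode anion exchangers, and Slc4a11 were members. Slc4a2 had 4 islands, 2 of them upstream, and Slc4a3 had 3 inside its 13167 bp. Slc4a1, the red cell anion exchanger gene, had 1 inside and Slc4a11 had 1 over the start. Of the sodium-proton exchanger genes Slc9a5 and Slc9a8, Slc9a8 had 5 islands and Slc9a5 had 1 inside. Slc26a11 had 4 islands, 1 upstream, 1 downstream and 1 over each end of the gene, the latter covering 52.2% of it. Its narrow region at 119217000 lay in the island over the start. Slc26a9 had an island of 17600 bp over its start, and Slc26a1 one over its end. Slc24a4 had 1 island of 1600 bp in a gene of 137332 bp, and Slc24a6, named Slc8b1 in RefSeq, had 1 inside and 2 downstream. The scaffold genes Slc9a3r1 and Slc9a3r2 each had an island over the end.

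Sugar carriers had islands at 10 of 34 genes (29.4%, all protein-coding genes 17.2%), and no island of this class covered a gene start. Slc2a1, the main glucose transporter gene of most cells, had 2 islands inside the gene on chromosome 4, from 118792400 to 118795399 and from 118796000 to 118800399. They lay between 11051 and 19050 bp into a gene of 28586 bp. Slc2a8 had 1 over the end and 1 downstream, Slc2a9, a urate transporter gene, had 1 inside its 152881 bp, and Slc2a6 had 1 upstream by 9882 bp. Slc37a2 had 2 islands over 72.5% of the gene and Slc37a1 had 2 over 13.2%. In the Slc45 family, 3 of 4 genes were members, where 20.6% of all protein-coding genes were in either list. Slc45a3 had 2 islands, Slc45a4 had 1 inside and Slc45a1 had 1 downstream. Slc5a10 had its own island 1484 bp downstream, although 6 islands paired with Fam83g lay over its body. Slc5a3, described above, had no island.

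Mitochondrial carriers, which make up the Slc25 family, had islands at 12 of 47 genes (25.5%, all protein-coding genes 17.2%). They had narrow regions at 3 (6.38%, all 5.78%). Only 8 of their 19 islands overlapped the paired gene, where 121 of all 171 did (70.8%). Carriers of monocarboxylates and organic ions also had few, 7 of 14, and the part of gene length in this was not tested. Slc25a10, the dicarboxylate carrier gene, had the widest island of any member, 22400 bp on chromosome 11 from 120343800 to 120366199, over the whole gene. Slc25a39, whose product is needed for mitochondrial glutathione, was also covered whole, by an island of 9800 bp. Slc25a25 had an island of 15400 bp over its end, Slc25a44 one of 6400 bp over its end, and Slc25a22 and Slc25a29 had 1 each over the start. Slc25a45 had 4 islands, with 1 over the start and 3 outside. Islands lay only outside the gene at Slc25a1, Slc25a20, Slc25a41 and Slc25a48. Slc25a1, the citrate carrier gene, carried 3 narrow regions, the most of any member. These were listed on chromosome 16 from 17928300 to 17928600 across the start, with 14 of 301 bp in the gene, from 17927400 to 17928000 within it and from 17922100 to 17922200 downstream. Positions there are rounded to 100 bp, so the 14 bp do not settle whether the start was crossed. All 3 regions fell in an island of the neighbour Dgcr14, from 17919600 to 17932599, which covered Slc25a1 whole. The region of Slc25a11 likewise lay in an island of Eno3. That of Slc25a42 lay outside islands, and its island lay inside the gene.

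Carriers of nucleosides and nucleotide sugars had islands at 8 of 36 genes (22.2%, all protein-coding genes 17.2%). In the Slc29 family of equilibrative nucleoside transporters all 4 genes had islands, 12 in total. Slc29a4 had 5, of which 4 lay inside over 55.9% of the gene. Slc29a3 had 3 from the start inwards, and Slc29a1, the main adenosine transporter gene, had 1 over the end and 2 downstream. Slc29a2 had 1 island of 4000 bp over the start, with a narrow region in it on chromosome 19 from 5024270 to 5024480, 265 to 475 bp into the gene. In the Slc35 family, 5 of 27 genes were members, where 20.6% of all protein-coding genes were in either list. Slc35c1, the GDP-fucose transporter gene, Slc35c2, Slc35e1 and Slc35f3 each had an island over the start. That of Slc35e1 was 14200 bp wide, and Slc35f3 also had one of 15400 bp inside. Slc35f6 had its narrow region and no island.

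Carriers of monocarboxylates and organic ions had islands at 8 of 63 genes (12.7%, all protein-coding genes 17.2%), the lowest share of the named classes. They had narrow regions at 5 (7.94%, all 5.78%), the highest share. The binomial intervals of these shares, 5.65 to 23.5% and 2.63 to 17.6%, include the shares of all protein-coding genes. The ranks therefore rest on few genes and do not set this class apart from all genes. Slc16a3, which encodes the lactate exporter of glycolytic cells, had 3 islands: 1 of 8800 bp inside the gene, 1 with 115 bp in the gene at its end and 1 upstream by 9998 bp. They covered 84.8% of the gene. It also had 2 intronic narrow regions, at 120810000 and 120812000 on chromosome 11. The second lay in the island inside the gene, which begins at 120810800. The first was listed outside it, but positions there are rounded to 1000 bp and do not settle this. Slc16a8, another lactate transporter gene, had 4 islands, 1 of them over the whole of its 3734 bp and holding the narrow region from 79082500 to 79082700 on chromosome 15. Slc16a5 had 1 island over the start and Slc16a11 had 1 over the end and 1 downstream. Slc22a4 had 1 island, over the start, of 2600 bp, which held its narrow region. Slc22a14 had 1 over the end, Slc22a20 1 upstream and Slc22a12, the urate exchanger gene, 1 downstream. The 2 narrow regions of Slc22a3 spanned 12699900 to 12700000 and 12700300 to 12700400 of chromosome 17, and it had no island. Slc18a3, the vesicular acetylcholine transporter gene, which lies in an intron of Chat, had a narrow region within it on chromosome 14 from 33276500 to 33276700 and no island.

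The other named classes had islands only. The binomial intervals of their shares with a narrow region reach 11.2% for metal carriers and 30.8% for the phosphate class. For the vitamin class the interval reaches 13.7%. All include the 5.78% of all protein-coding genes, so the absence of narrow regions does not set these small classes apart. Metal carriers had islands at 7 of 31 genes (22.6%, all protein-coding genes 17.2%). Slc39a7, which encodes a zinc carrier of the endoplasmic reticulum, was covered whole by an island of 11800 bp, Slc39a13 had one of 13600 bp over its end, and Slc39a5 had 1 over the end and 1 downstream. Slc39a14 had a single island of 800 bp, Slc41a1 and Slc41a3 had 1 inside each, and Slc11a1 had 1 downstream by 5975 bp. Carriers of phosphate, sulphate and dicarboxylates had islands at 4 of 10 genes (40%, all 17.2%). Slc34a3, a kidney phosphate transporter gene, had 4 islands, of which those over the start and the end covered 81.3% of the gene. Slc13a2 had 1 over the start, 1 inside and 1 over the end. Slc13a3 had 1 inside and Slc20a1 had 1 over the start. Carriers of vitamins, haem, choline and fatty acids had islands at 6 of 25 genes (24%, all 17.2%). Slc46a1 and Slc27a4, genes of a folate and a fatty acid carrier, had 1 each over the start, and Slc19a1, the reduced folate carrier gene, and Slc23a2, a vitamin C transporter gene, 1 each inside. Slc46a3 had 1 over the end and 1 downstream, and Slc48a1, a haem transporter gene, had 1 inside and 2 downstream. Of the 51 Slc families in RefSeq, 32 had a member, with genes listed under older names not counted. The largest without one were Slc30, zinc exporters with 10 genes, Slc17 with 9 and Slc10, which includes bile acid carriers, with 7.

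Narrow regions of members lay in an island more often than those of other genes, 11 of 21 (52.4%) against 501 of 1598 (31.4%). Both lists helped to choose the members, so this difference is a description. Widening each region by 1000 bp on each side, the largest rounding step, gave 12 of 21 (57.1%). Of the 11, 6 lay in an island paired with the same gene and 5 in one paired with a neighbour. The 6 genes with both calls at one place were Slc16a3, Slc16a8, Slc22a4, Slc26a11, Slc29a2 and Slc38a10, and in the last 4 the shared island covered the gene start. In Slc12a5, Slc25a1 and Slc25a42 the gene's own island held no narrow region of the gene. Seen from the islands, 12 of 171 (7.02%, other genes 4.74%) held a narrow region, and 6 of these regions were assigned to other genes, among them Cysrt1 in an island over the start of Slc34a3.

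**Figure D5:**
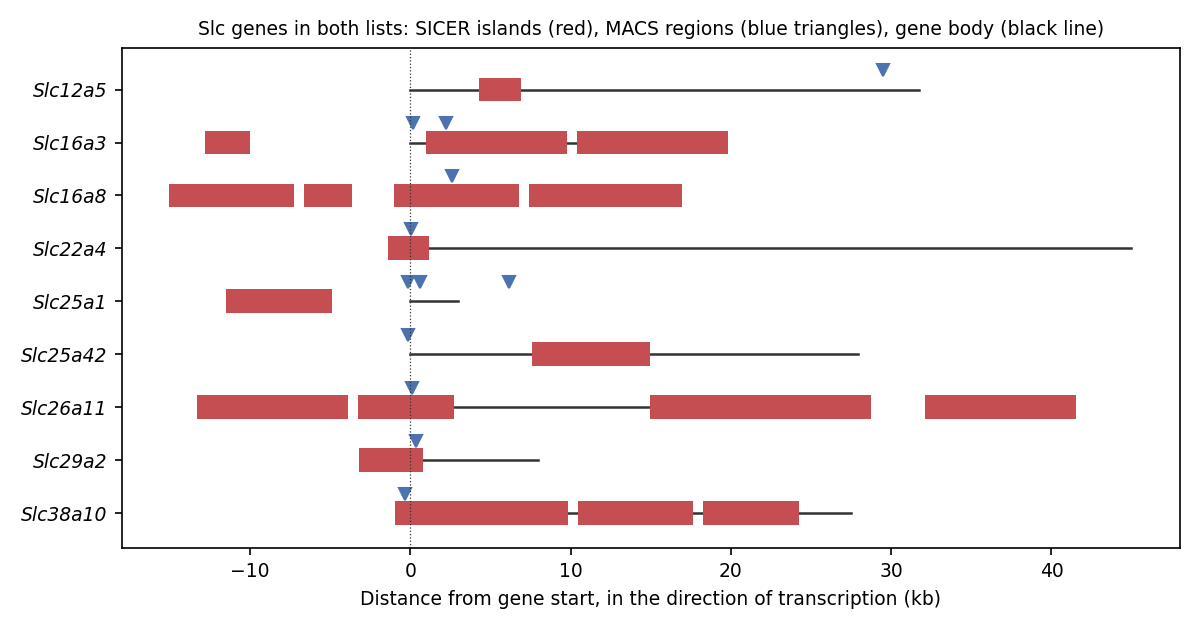
Islands (red bars) and narrow regions (blue triangles) of the 9 members in both lists, as distance in kb from the gene start in the direction of transcription (x axis), with gene bodies as black lines. Narrow regions lie near the start in 7 of the 9 genes and inside an island of the same gene in 6, but positions of Slc12a5, Slc16a3, Slc26a11 and Slc38a10 are rounded to 1000 bp.

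The list pairs an island with 1 gene only, so some members had more island bases over them than their own islands gave. Islands of neighbours overlapped the bodies of 18 members, among them 3 of the 11 with no island of their own over the gene: Slc25a1, Slc2a6 and Slc5a10. With all islands counted, coverage went from none to the whole gene in Slc25a1, from 8.4% to 93.3% in Slc9a3r1 and from 43.2% to 92.1% in Slc12a3. In the other direction, 22 of the 50 member islands outside their gene lay over the body of another gene in the list, for example Ptges2 downstream of Slc25a25 and Cdk5 upstream of Slc4a2. In all, 27 of 171 member islands (15.8%, other genes 768 of 7659) touched another listed gene.

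Other transport genes, listed by symbol, gave shares below and above that of the Slc genes. Islands were paired with 10 of 50 ABC transporter genes, 21 of 64 ion pump ATPase genes (32.8%), 18 of 60 voltage-gated channel genes and 2 of 14 Slco genes. Narrow regions were assigned to 5 (10%), 3 (4.69%), 3 (5%) and 1 (7.14%) of these genes in that order. The intervals of these shares all include the 5.78% of all protein-coding genes. Position differed most from the channel genes, where 48 of 55 islands (87.3%) lay inside the gene and 3 (5.45%) covered a start, in genes of 66.4 kb at the median. The pump genes had 25 of 47 islands (53.2%) inside and 4 over a start (8.51%). These counts are small, and the islands of one gene are not independent of each other.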

How the data were processed

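DNMT3B ChIP and input DNA from lung metastases (labels lung 3 and 5) was sequenced. The submitters' processing notes name Bowtie2 (2.10), MACS (1.4), SICER and mm10. The name of the narrow list reads MACS2, so the MACS version is not settled. Whether libraries were pooled before the calls is not stated in any label or header. The deposited values used are base positions and distances in bp, per the file headers, with no counts, folds or p-values. MACS positions carry at most 6 significant digits, so starts stand on steps of 10, 100 or 1000 bp. An end that is no number was set to the start, and each distinct region was counted once.

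Gene ends in the island list lay within 1 kb of GRCm38 for only 5 of 87 members (5.75%, median difference 174.4 kb). The gene positions in that list are therefore not those of GRCm38 (mm10). Which build they follow is not stated, and they are given as deposited. Of these 5 members 2 had a narrow region, and of the other 82, 7 did. Island places along the gene use the gene positions in the island list. The narrow regions followed those positions at Slc25a42 and Slc22a4, genes that lay 2523.9 and 186.5 kb from GRCm38. That of Slc25a42, listed 19 bp upstream, begins at 72736200, where the island list ends this minus-strand gene at 72736180. Positions of narrow regions are therefore not those of GRCm38 there either, and are given as deposited.

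Genes were matched to RefSeq (GRCm38.p6) by accession, symbol or unique synonym, which gave all 95 members. A further 6 genes that RefSeq names Slc stand under older names and are not counted. The shares of all protein-coding genes do count genes under older names. Some genes that fit the symbol pattern are not reported here by name. Members, substrate classes and comparison lists were chosen with earlier results of these data known. Full values were planned for genes in both lists, those with at least 2 narrow regions, the 10 with most islands (ties made 11), the 10 widest islands, those with an island over the start and a narrow region within 1000 bp, and those nearest the distance limit. Others are named by class. The 6 promoters printed were picked after their values were seen. Position code was tested on simulated data. Python 3.11.15, pandas 2.3.3 and numpy 2.4.6 were used.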

Additional observations from a re-analysis of the deposited data

How the results depend on the processing

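Of 21 alternatives over 8 results, 19 stayed within 1.5 times the reported count, the exact 95% binomial interval of the share or 1 SD of the members' values. With islands required to have their midpoint in the gene body or up to 5000 bp upstream, the share of Slc genes with an island was 19% in place of 23.3%, and that of all protein-coding genes was 13.2% in place of 17.2%. With every deposited line counted, the narrow regions of members numbered 53 in place of 21, because lines repeat. Without chromosome 16 the share of Slc genes with a narrow region was 3.56%, and 4.86% of all genes. Alternatives with older gene names, without the scaffold genes, with 1 width per gene and with the window richest in CG were added after seeing the data. For the same reason that no library could be left out, nothing could be paired. No paired analysis was possible because neither list gives values for single libraries. Depth is unknown, and what it limits could not be measured.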

Other observations

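A further 6 genes that RefSeq now names as solute carriers stood in the lists under older symbols and were not counted. These were 2010107G12Rik (Slc23a4), 2310046K01Rik (Slc52a3), Amac1 (Slc35g3), Osta (Slc51a), Pqlc2 (Slc66a1) and Dirc2 (Slc49a4), the last with a narrow region. With them the number of genes would be 101. A narrow region on chromosome 8 from 71612500 to 71612700 was assigned to Atp6v1b2, a proton pump subunit gene, and was also described as lying in an intron of Slc18a1, a vesicular monoamine transporter gene that is not among the members.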
